A study of Mus musculus with 6 samples.

Results

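The hypoxia-inducible factor (HIF) pathway was followed through 10 genes in mouse pre-B leukaemia cells: Hif1a and Arnt, which encode the factor's subunits; Egln1, Egln2, Egln3 and Hif1an, which encode its oxygen-dependent hydroxylases; Vhl, which encodes the adaptor that leads to its destruction; and Bnip3, Bnip3l and Ankrd37, which are among the genes it induces. Members were taken by name, through probe sets that the array annotation gives to a single gene symbol, and the brightest probe set stood for a gene. All 10 were found among the 19938 genes so named, and all 10 passed the filter on dim genes that left 14953 genes for testing. The cells were C57BL/6 pre-B cells transformed by BCR-ABL1, a model of Philadelphia chromosome-positive acute lymphoblastic leukaemia, and all of them were Inpp5d fl/fl, so that both groups carried loxP-flanked alleles of the gene for the lipid phosphatase SHIP1. One group, on 3 arrays labelled CRE, had been transduced with PMIP-CRE-ERT2, a Cre recombinase activated by tamoxifen, and the other, on 3 arrays labelled ERT, with PMIP-ERT2, which lacks Cre. Both groups received 4-hydroxytamoxifen at 0.5 µM for 2 days before RNA was taken from puromycin-resistant cells, so the comparison asks how transcripts differ once Cre is activated in cells with floxed Inpp5d. No cells with Cre and unfloxed alleles and none without tamoxifen were included, and Cre activity and loss of Inpp5d cannot be told apart.

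In cells with enough oxygen, prolyl hydroxylases of the EGLN family mark the HIF alpha subunit, VHL binds the marked protein, and a ubiquitin ligase sends it to the proteasome. When oxygen or the co-substrate 2-oxoglutarate is short, the alpha subunit persists, pairs with ARNT and switches on genes of glycolysis, of the removal of mitochondria by mitophagy and of its own control, Egln1 and Egln3 among them. Much of this regulation acts on protein stability, which transcript levels do not report. Growth factor signalling through PI3K, whose lipid product SHIP1 degrades, is a known source of HIF activity in leukocytes also at normal oxygen.

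Of the 10 genes, 3 fell in the arrays labelled CRE, 0 rose and 7 did not pass (limma, adjusted p under 0.05 over all 14953 genes). An unadjusted p under 0.05 was found for the same 3 of the 10 and for 4993 of all 14953 genes. The 3 were Bnip3, Ankrd37 and Egln1, each of them a gene that HIF is known to induce, and their falls were small, between 1.15-fold and 1.25-fold. Bnip3l and Egln3, which HIF also induces, did not pass, with log2 differences of -0.020 and 0.10. Over all genes tested, 7.62% passed in either direction, 4.13% lower and 3.50% higher. Among the 9445 genes at least as bright as the dimmest member, 5.79% passed lower. ERT and CRE values were fully apart for 4 of the 10 genes, all lower in the arrays labelled CRE, against 38.5% of all genes tested (17.7% lower and 20.7% higher) and 26.2% lower among genes as bright. The median log2 difference of the 10 genes was -0.083, and that of all genes tested was 0.026. Among genes with a mean at or above the 50th percentile, which include all 10, the median was -0.026. A difference below 0 was seen in 8 of the 10 genes and in 43.4% of all genes tested, a share not counted for bright genes alone. Since whole populations of cells were measured, fewer cells expressing a gene and less RNA per cell cannot be told apart.

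The promoters of the 3 genes that fell are printed here because HIF binds a short core motif, ACGTG or GCGTG, that can be looked for in them. Each line is the strand of the gene, 5′ to 3′, from 250 bases before the annotated start to 50 bases after it, taken from RefSeq on GRCm38.p6, with every match to the core motif on either strand in capitals and overlapping matches joined. The Bnip3 window lies at chr7:138909457-138909756, the Ankrd37 window at chr8:45999801-46000100 and the Egln1 window at chr8:124949205-124949504, all on the minus strand. The RefSeq gene Ankrd37 has its 5′ end at 46000414, upstream of the whole window, so the start used for Ankrd37 lies inside the gene. For Bnip3 and Egln1 the 5′ end of the gene falls inside the window.
Bnip3: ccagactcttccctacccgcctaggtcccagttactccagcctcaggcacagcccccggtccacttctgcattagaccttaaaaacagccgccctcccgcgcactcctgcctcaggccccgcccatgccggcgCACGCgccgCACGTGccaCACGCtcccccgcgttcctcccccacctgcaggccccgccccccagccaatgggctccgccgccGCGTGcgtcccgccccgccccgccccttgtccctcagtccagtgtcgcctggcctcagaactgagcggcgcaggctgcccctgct
Ankrd37: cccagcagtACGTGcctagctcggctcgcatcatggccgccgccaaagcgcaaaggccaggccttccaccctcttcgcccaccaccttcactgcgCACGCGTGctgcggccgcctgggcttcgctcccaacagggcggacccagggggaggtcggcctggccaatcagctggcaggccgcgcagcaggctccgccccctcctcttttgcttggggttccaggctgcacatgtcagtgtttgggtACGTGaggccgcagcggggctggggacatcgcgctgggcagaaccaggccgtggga
Egln1: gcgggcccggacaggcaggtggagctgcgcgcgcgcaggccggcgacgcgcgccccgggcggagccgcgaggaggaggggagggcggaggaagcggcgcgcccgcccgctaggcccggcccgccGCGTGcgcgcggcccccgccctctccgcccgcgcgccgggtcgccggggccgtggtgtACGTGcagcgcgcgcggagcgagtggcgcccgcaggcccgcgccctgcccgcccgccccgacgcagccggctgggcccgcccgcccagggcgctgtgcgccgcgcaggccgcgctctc
The Bnip3 window held 4 separate matches, beginning at -117, -108, -99 and -35 relative to the start, the Ankrd37 window 3, at -241, -155 and -6, and the Egln1 window 2, at -126 and -68. In Bnip3 the match at -108 is the palindrome CACGTG. A promoter window was listed for 9 of the 10 genes, and 7 of these 9 held the core motif (77.8%), Vhl and Hif1an being those without. The motif was present for 62.8% of tested genes with a window and in 43.8% of all 32851 windows, so a match is common. Egln2, Hif1a, Arnt and Egln3 also held it and did not pass the test, and a match does not show that HIF binds there.

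**Figure D1:**
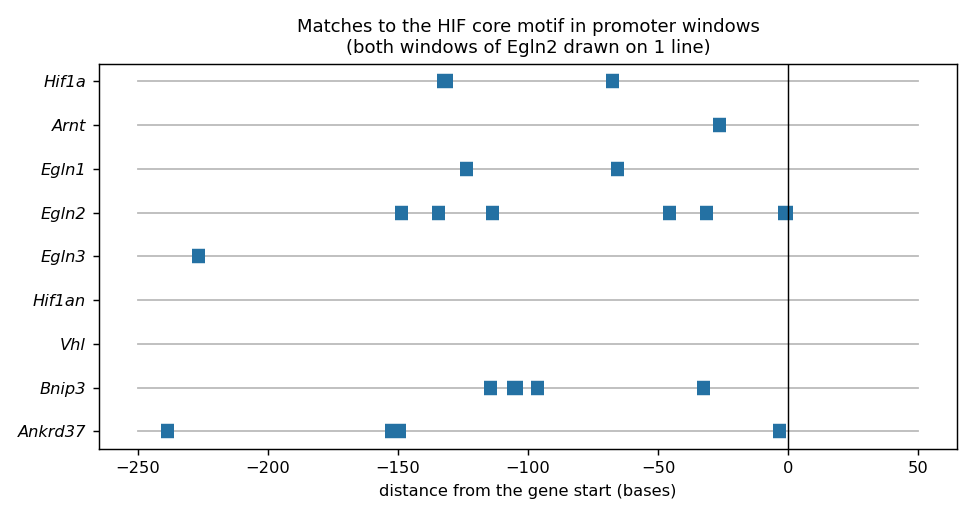
Positions of the HIF core motif in promoter windows of 9 genes, with blocks for matches on either strand. Distances are in bases from the annotated start that each window was taken around, which for Ankrd37 lies inside the gene. Bnip3 has 4 separate blocks and Ankrd37 3, and Vhl and Hif1an have none; the blocks of both Egln2 windows share a line.

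The subunit genes were not called in either direction. Hif1a, which encodes the oxygen-labile alpha subunit, had log2 values of 12.44, 12.59 and 12.41 in the arrays labelled ERT and 12.42, 12.31 and 12.34 in those labelled CRE. The groups overlapped, because replicate 1 labelled CRE lay above replicate 3 labelled ERT. The log2 difference of Hif1a was -0.12 ± 0.059 (SE), with a 95% interval from -0.26 to 0.015 (limma adjusted p = 0.183). Arnt, which encodes the stable partner subunit, read 12.04, 12.10 and 12.02 in the arrays labelled ERT and 12.18, 12.12 and 12.10 in those labelled CRE. Its highest ERT value and its lowest CRE value met, and the difference was 0.079 ± 0.046 (SE), with an interval from -0.028 to 0.18 (adjusted p = 0.254).

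Among the hydroxylase genes, Egln1 fell and the other 3 did not pass. Egln1 encodes the prolyl hydroxylase that sets HIF alpha levels in most cells. It read 11.21, 11.28 and 11.19 in the arrays labelled ERT and 11.01, 11.03 and 11.05 in those labelled CRE. The groups were well apart: the gap between them exceeded the range within either one, and the CRE arrays lay within a narrow band. Egln1 fell by 0.20 ± 0.045 (SE) on the log2 scale, with an interval from -0.31 to -0.097, a 1.15-fold change (limma adjusted p = 0.0388). The call of Egln1 held without replicate 3 labelled CRE (adjusted p = 0.0338) and was lost with any other single array left out, with adjusted p up to 0.148, while the difference stayed between -0.22 and -0.17. Quantile normalization (-0.16, adjusted p = 0.0627), loess (-0.16, adjusted p = 0.0625) and testing without the filter on dim genes (adjusted p = 0.0711) also ended the call.

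Egln2 encodes the prolyl hydroxylase that is itself not a HIF target. Its log2 values were 10.58, 10.58 and 10.63 in the arrays labelled ERT and 10.54, 10.54 and 10.57 in those labelled CRE. These did not overlap, but the difference was only -0.046 ± 0.042 (SE; adjusted p = 0.458), with an interval from -0.14 to 0.052, and it turned to 0.0064 after quantile normalization and to 0.0039 after loess. Egln3 encodes the prolyl hydroxylase whose transcript is strongly induced by hypoxia in many cells. It read 10.74, 10.77 and 10.64 in the arrays labelled ERT and 10.75, 10.79 and 10.91 in those labelled CRE, with overlap. The point estimate of Egln3 was upward, at 0.10 ± 0.059 (SE), with an interval from -0.032 to 0.24 (adjusted p = 0.242). Hif1an, whose product adds a hydroxyl group to an asparagine of HIF alpha and so blocks the binding of co-activators, read 9.94, 9.82 and 9.96 in the arrays labelled ERT and 9.89, 9.67 and 9.80 in those labelled CRE. Its groups overlapped, and the difference was -0.12 ± 0.067 (SE; adjusted p = 0.219).

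Vhl, the substrate-binding part of the ligase that takes hydroxylated HIF alpha to the proteasome, was close to level. Its log2 values were 9.88, 9.67 and 9.67 in the arrays labelled ERT and 9.68, 9.68 and 9.80 in those labelled CRE. In each group 1 array stood above the other 2, and the groups overlapped. The difference was -0.019 ± 0.068 (SE), with an interval from -0.18 to 0.14 (adjusted p = 0.858), and it turned above 0 after quantile normalization and after loess.

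**Figure D2:**
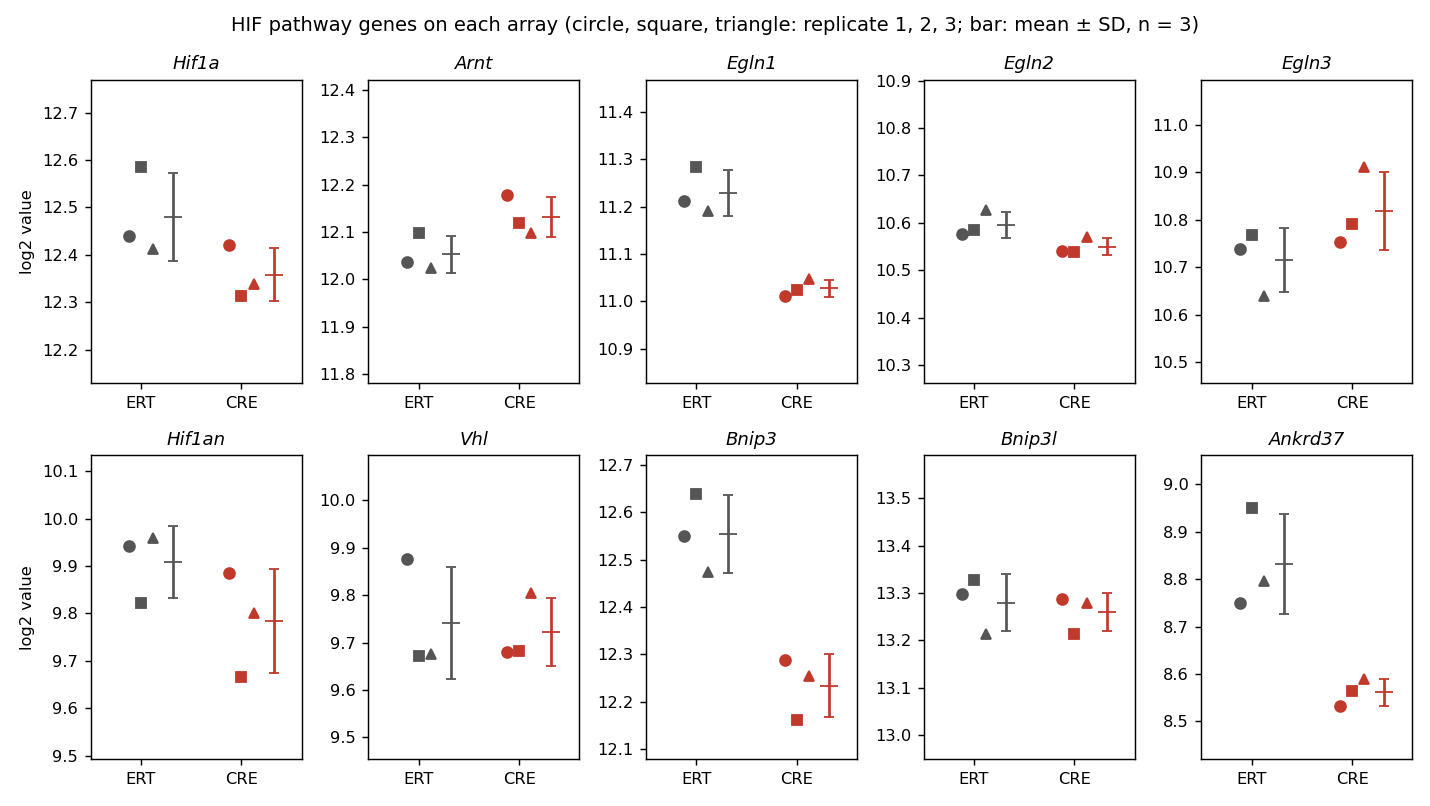
Log2 value of each of the 10 genes on each array, in panels that span equal log2 ranges, with arrays labelled ERT in grey and CRE in red, symbols for the replicate number and the mean ± SD of 3 arrays beside them. The groups lie apart for Egln1, Bnip3 and Ankrd37, narrowly so for Egln2, and overlap for the other 6 genes.

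Of the HIF-induced members, Bnip3 and Ankrd37 fell and Bnip3l did not pass. Bnip3 encodes a receptor of the outer mitochondrial membrane that ties mitochondria to the autophagy machinery. Its log2 values were 12.55, 12.64 and 12.47 in the arrays labelled ERT and 12.29, 12.16 and 12.25 in those labelled CRE. Every array labelled CRE lay below every array labelled ERT. Bnip3 fell by 0.32 ± 0.058 (SE) on the log2 scale, with an interval from -0.45 to -0.19, a 1.25-fold change and the largest of the 10 (limma adjusted p = 0.0237). The annotation gives Bnip3 a second probe set, which read 12.02, 12.10 and 12.01 against 11.76, 11.50 and 11.66 and also did not overlap. Tested with every probe set, it fell by 0.40 ± 0.068 (SE; adjusted p = 0.0214). Where each probe set lies, and whether it reads only Bnip3 or also a similar sequence elsewhere in the genome, was not given in the sources used here. The call of Bnip3 held in 3 of 6 fits with 1 array left out and was lost without ERT replicate 1 (adjusted p = 0.108), ERT replicate 2 (0.0852) or CRE replicate 1 (0.0679).

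Bnip3l encodes NIX, a paralogue of BNIP3 best known for clearing mitochondria from maturing red cells. It read 13.30, 13.33 and 13.21 in the arrays labelled ERT and 13.29, 13.21 and 13.28 in those labelled CRE, and the groups overlapped through most of their range. Its difference was -0.020 ± 0.050 (SE), with an interval from -0.13 to 0.094 (adjusted p = 0.792), and its second probe set gave -0.067 (adjusted p = 0.422 in the fit over every probe set). A fall of the size seen for Bnip3 lies outside the interval of Bnip3l. Whether each Bnip3l probe set reads only that gene was likewise not given.

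Ankrd37 encodes a small ankyrin-repeat protein, and its transcript is a widely used marker of HIF activity. Its log2 values were 8.75, 8.95 and 8.80 in the arrays labelled ERT and 8.53, 8.56 and 8.59 in those labelled CRE. The arrays labelled CRE were all lower and lay closer together, with an SD of 0.029 against 0.10. Ankrd37 fell by 0.27 ± 0.059 (SE) on the log2 scale, with an interval from -0.41 to -0.13, a 1.21-fold change (limma adjusted p = 0.0361). The call of Ankrd37 held without CRE replicate 3 (adjusted p = 0.0319) and was lost with any other single array left out (adjusted p up to 0.118) and with no filter on dim genes (0.0651), with differences between -0.31 and -0.21 over the 6 fits.

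**Figure D3:**
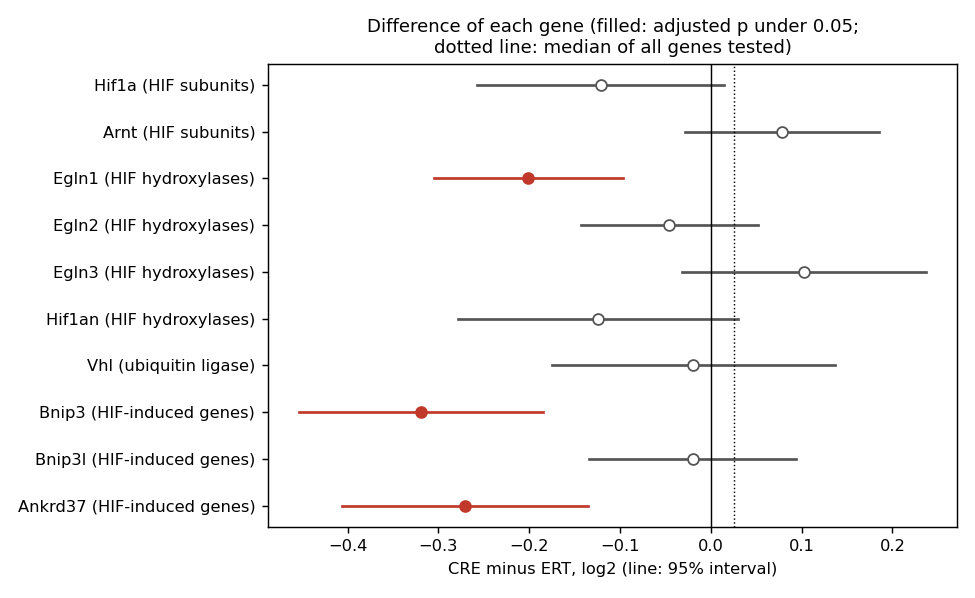
Difference of each gene between the arrays labelled CRE and ERT on the log2 scale, with its 95% interval from limma, filled where the adjusted p was under 0.05. Bnip3, Ankrd37 and Egln1 lie to the left of 0, and the intervals of the other 7 genes cross 0; the dotted line is the median of all genes tested, 0.026.

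Differences between members were also taken within each array, which removes any shift common to a whole array. Chosen after the values had been seen, 5 pairs were compared by a two-sided exact permutation test over the 6 arrays, for which 0.1 is the smallest p that 20 arrangements can give, so none can pass 0.05. The within-array difference of Bnip3 minus Bnip3l was -0.75, -0.69 and -0.74 in the arrays labelled ERT and -0.998, -1.05 and -1.03 in those labelled CRE, a shift of -0.30. That of Egln1 minus Egln3 was 0.47, 0.52 and 0.55 in the arrays labelled ERT and 0.26, 0.23 and 0.14 in those labelled CRE, also a shift of -0.30. Egln1 minus Egln2 shifted by -0.16 and Bnip3 minus Hif1a by -0.20. In all 5 pairs the groups did not overlap and the exact p was 0.1 (adjusted p also 0.1). Each pair held Bnip3, Egln1 or Epas1, a further HIF subunit gene, all called on these same arrays. Lack of overlap in the pairs is therefore not separate evidence.

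The order of the arrays within a group was described for the members and for equally bright genes, without a test. ERT replicate 2 was the highest of the 3 ERT arrays for 7 of the 10 genes, against 40.8% of genes at least as bright as the dimmest member. ERT replicate 3 was the lowest ERT array for 6 of the 10, against 43.0%. CRE replicate 2 was the highest CRE array for 0 of the 10, against 13.4%, and the lowest for 5 of the 10, against 60.1%.

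Further parts of the pathway were read from a list of 18 genes for other HIF subunits, co-activators and a competitor for them, parts of the VHL ligase, and further proteins that act on HIF or its hydroxylases. Of the 15 tested, 1 fell, 1 rose and 13 did not pass, where 7.62% of all genes tested passed in either direction. The median log2 difference of the 15 was -0.038, against 0.026 for all genes tested and -0.026 for genes with a mean at or above the 50th percentile. Cited2, which encodes a HIF-induced protein that competes with HIF alpha for the co-activators p300 and CBP, read 12.33, 12.36 and 12.25 in the arrays labelled ERT and 11.81, 11.92 and 11.99 in those labelled CRE. It fell by 0.41 ± 0.059 (SE; limma adjusted p = 0.00972), a 1.33-fold change that was larger than that of any of the 10 members. Epas1 encodes HIF-2 alpha, the other main oxygen-labile subunit. It read 8.30, 8.36 and 8.34 in the arrays labelled ERT and 8.79, 8.61 and 8.89 in those labelled CRE, and rose by 0.43 ± 0.072 (SE; adjusted p = 0.0177), 1.35-fold. Within arrays, Hif1a minus Epas1 moved by -0.55, the widest shift of the 5 pairs. The call of Cited2 was lost without ERT replicate 1 or 2 (adjusted p up to 0.0628), and that of Epas1 without any ERT array or CRE replicate 1 (up to 0.0954).

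A list of 54 HIF target genes outside the members was read next. Of the 47 tested, 15 fell, 1 rose and 31 did not pass (over all genes tested, 4.13% fell and 3.50% rose). The median log2 difference of the 47 was -0.12, against 0.026 for all genes tested. Among genes with a mean at or above the 50th percentile, which include 37 of the 47, the median was -0.026. The list holds glycolytic genes and Ak4, whose falls were known when it was written, so its direction is not independent evidence. Bhlhe40, which encodes a transcriptional repressor induced by hypoxia, read 8.55, 8.58 and 8.43 in the arrays labelled ERT and 7.58, 7.85 and 7.79 in those labelled CRE. The gap between its groups was wide, and it fell by 0.78 ± 0.077 (SE), a 1.72-fold change (limma adjusted p = 0.00229), with its call kept in each fit with 1 array left out.

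Many genes of the list serve glucose uptake or breakdown, and some of these fell and others did not pass. The glucose transporter genes Slc2a3 and Slc2a1 fell by 0.46 ± 0.073 and 0.25 ± 0.047 (SE; adjusted p = 0.0155 and 0.0244). Hk2, which encodes a hexokinase that traps glucose in the cell, fell by 0.29 ± 0.053, and Gbe1, which encodes the glycogen branching enzyme, by 0.39 ± 0.063 (SE; adjusted p = 0.0223 and 0.0172). Hk1, which encodes another hexokinase and was chosen for mention after its values were seen, did not pass (difference -0.021, limma adjusted p = 0.741). Pdk1, which encodes a kinase that keeps pyruvate out of the mitochondria, fell by 0.29 ± 0.049 (SE; adjusted p = 0.0196). Ak4, which encodes a mitochondrial adenylate kinase, fell by 1.61 ± 0.071 (SE; adjusted p = 3.42e-05) by its brighter probe set, while its other probe set gave -0.15 (adjusted p = 0.297 in the fit over every probe set). Slc16a3, Aldoc, Pfkl and Tpi1 had differences of -0.49, -0.44, -0.43 and -0.34 and were called too, and the 4 further genes that fell did so by 0.18 to 0.30.

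The falls did not extend to every well-known target. Hmox1, which encodes heme oxygenase and answers to oxidative stress as well as to HIF, was the 1 target that rose, by 0.27 ± 0.045 (SE; adjusted p = 0.0172). Vegfa, Ldha and Ndrg1, chosen for mention after their values were seen, had differences of -0.034, -0.045 and 0.026, and none passed. Their intervals ran from -0.13 to 0.067, from -0.14 to 0.054 and from -0.070 to 0.12. The core motif was present in the promoter windows of 11 of 13 targets that fell (84.6%) and of 23 of 27 that did not pass (85.2%). Against 16 targets called with all arrays, 5 were called without ERT replicate 1, 6 without ERT replicate 2, 8 without ERT replicate 3, 7 without CRE replicate 1, 13 without CRE replicate 2 and 18 without CRE replicate 3. Ak4, Bhlhe40, Slc16a3, Pfkl and Aldoc passed in each of these 6 fits.

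**Figure D4:**
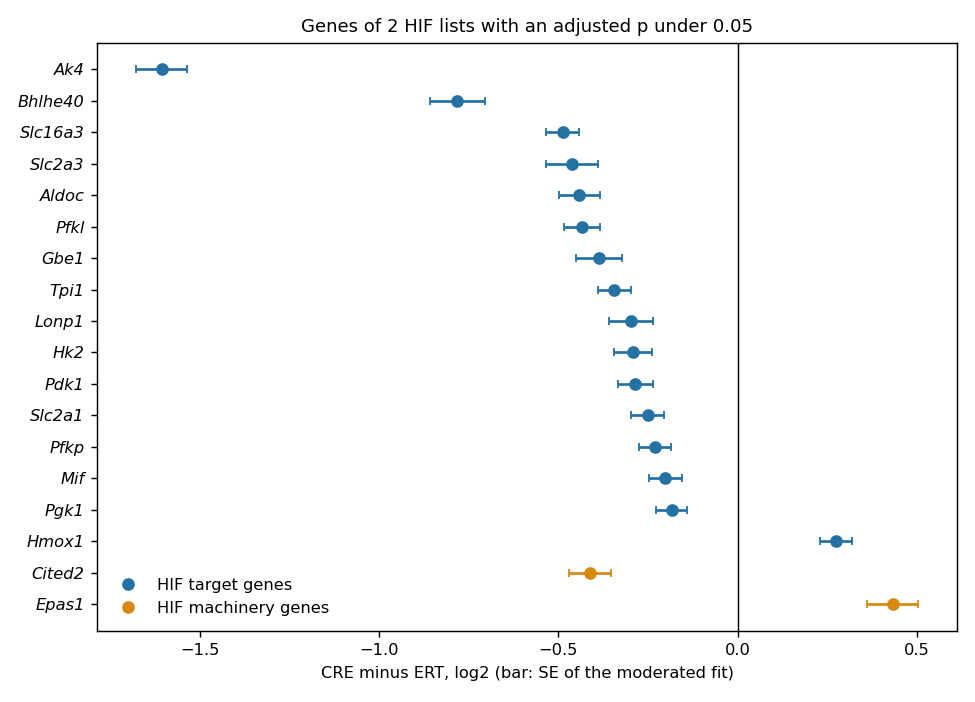
Log2 difference between the arrays labelled CRE and ERT, with the SE of the moderated fit, for genes of the HIF target list (blue) and of the HIF machinery list (orange) that had an adjusted p under 0.05. Targets lie below 0 apart from Hmox1, from -1.61 for Ak4 to -0.18 for Pgk1, and Cited2 and Epas1 lie on opposite sides of 0.

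Other mitophagy genes were read because Bnip3 encodes a mitophagy receptor. Of 21 tested, which encode further receptors, ubiquitin-dependent factors and proteins that start or build autophagosomes, 0 passed limma's test, where 7.62% of all genes tested passed. An unadjusted p under 0.05 was found for 5 of the 21 and for 4993 of all 14953 genes. The smallest p-values were those of Phb2, Gabarapl2 and Pgam5, with differences of -0.17, -0.22 and -0.14 (adjusted p = 0.0542, 0.0557 and 0.0797). Phb2 encodes an inner-membrane receptor of mitophagy, Gabarapl2 a protein of the autophagosome membrane and Pgam5 a mitochondrial phosphatase. The difference of Gabarapl2 was 0.015 when its probe sets were averaged.

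HIF hydroxylases consume 2-oxoglutarate and release succinate. A list of 18 genes held enzymes that make or use 2-oxoglutarate or its relative 2-hydroxyglutarate, and also succinate dehydrogenase subunits and fumarase, which act on succinate and fumarate. Of the 16 tested, 2 fell, 0 rose and 14 did not pass, where 4.13% of all genes tested fell. The median log2 difference was -0.11 and 15 of 16 differences were below 0, against a median of 0.026 and 43.4% below 0 over all genes tested. Among genes with a mean at or above the 50th percentile, which include all 16, the median was -0.026. The share below 0 was not counted for bright genes alone. Idh1, which encodes the cytosolic enzyme that makes 2-oxoglutarate from isocitrate, read 10.48, 10.47 and 10.67 in the arrays labelled ERT and 9.48, 9.31 and 9.71 in those labelled CRE. It fell by 1.04 ± 0.10 (SE; limma adjusted p = 0.00225). Idh3a, a subunit gene of the mitochondrial enzyme, fell by 0.22 ± 0.043 (SE; adjusted p = 0.0287), and its call held only without CRE replicate 3 among the 6 fits that left out an array.

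Genes most like Bnip3 in their pattern were found by the root-mean-square distance between log2 values, each centred on its mean over the 6 arrays. Slc6a9, a glycine transporter gene, was nearest at 0.019, followed by Efcab11 (0.023), the co-chaperone gene Dnajb4 (0.023), Tex30 (0.026) and the DNA repair gene Fancb (0.027). The 5 were chosen for nearness to Bnip3 on these arrays, so their falls of 0.29 to 0.32 and lack of overlap follow from the choice. None is a member of the lists used here.

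**Figure D5:**
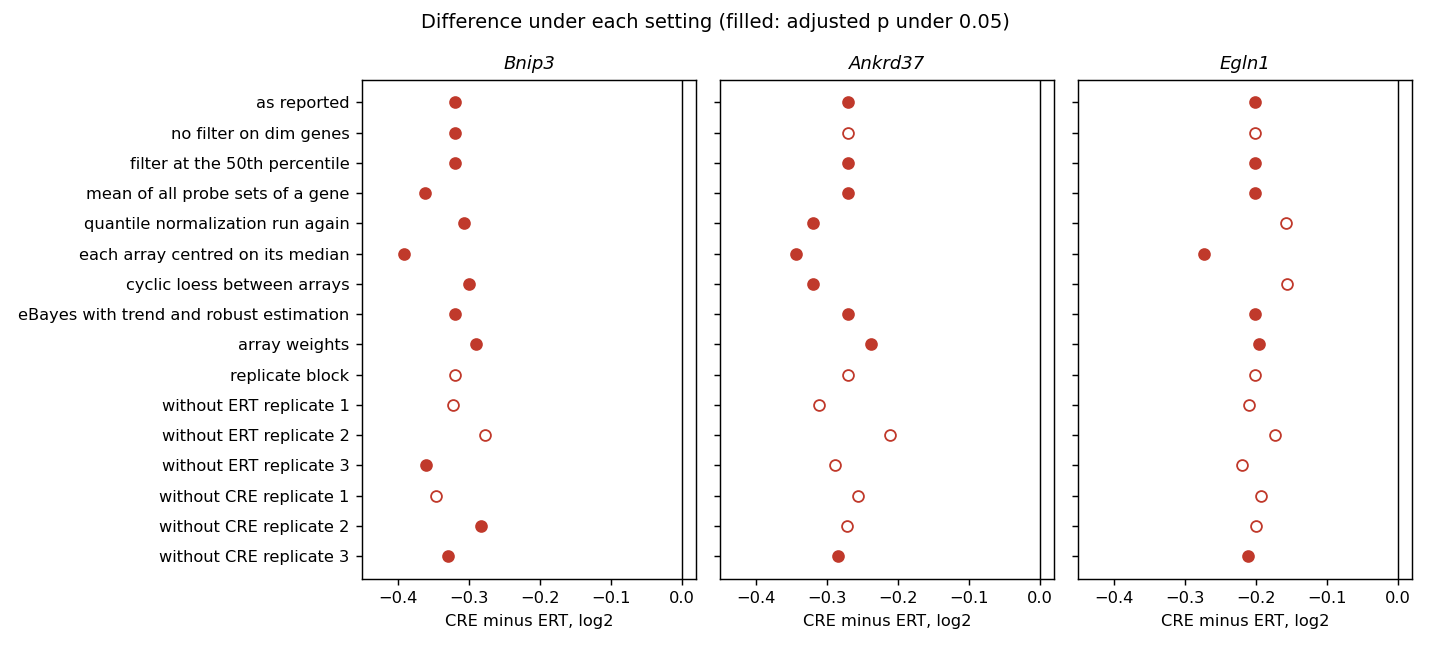
Log2 difference between the arrays labelled CRE and ERT of Bnip3, Ankrd37 and Egln1 under each setting, filled where the adjusted p was under 0.05. All points lie below 0, between -0.39 and -0.16, whereas the call comes and goes, most often for Egln1.

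Several facts of the whole series bear on these values. Inpp5d read 13.20, 13.21 and 13.17 in the arrays labelled ERT and 13.37, 13.34 and 13.34 in those labelled CRE, so the target's signal was not lower where Cre was present (0.16 ± 0.041, SE; adjusted p = 0.0545). The position of its probe set relative to the deleted exons was not given in the sources used here, and groups are therefore named by label. Separate cultures are not stated in the labels for the 3 arrays of either group, and the p-values therefore reflect only how far these arrays spread, which may be technical. Over all genes, 3042 were called without CRE replicate 3 and 116 to 525 without any other array, and the members called were 3 without CRE replicate 3 and 0 or 1 without any other. Centring arrays on their medians left 13.3% of calls higher in place of 45.9%. Of the B lineage markers, 10 of 11 were on the array with mean log2 values from 10.2 to 14.3. Their summed linear signal ranged from 100437 to 102168 in the arrays labelled ERT and from 102106 to 105123 in those labelled CRE, and Dntt was called higher, by 0.33 (adjusted p = 0.0176). The summed linear signal of 10 myeloid markers ranged from 2034 to 2115 in the arrays labelled ERT and from 2613 to 2701 in those labelled CRE, with Lyz2 and Cebpa called higher by 0.79 and 0.27 and Cd14, Csf1r, Csf3r, Itgam, S100a8 and S100a9 below the filter. For T and NK cell markers the sums were 1366 to 1413 and 1439 to 1616, for erythroid and megakaryocyte markers 1607 to 1678 and 1641 to 1908, with 0 called in either list, and for stromal markers 17702 to 18099 and 18608 to 19010, with Fn1 called higher. Cd3d, Cd3g, Gzmb, Klrb1c, Ncr1, Klf1, Pf4, Dcn and Lum of these lists were below the filter. Stromal markers had mean log2 values from 6.12 to 13.9, so the brightest weighs most in their sum. Fn1 had means of 8.03 in the arrays labelled ERT and 8.42 in those labelled CRE. The part of these marker shifts in the results was not tested.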

How the data were processed

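The authors deposited log2 values for 35556 probe sets on 6 arrays; the submitters' processing notes list RMA and Partek 6.5 without role or settings, and no further scaling was applied. Names came from the array's annotation: 21789 carried 1 symbol, 1621 carried several and were not used, and 12146 were unnamed. The brightest probe set stood for each of 19938 genes (999 had more than 1). The 4985 genes with a mean below the 25th percentile (log2 7.35) were left out.

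Groups and replicate numbers came from sample titles. limma 3.58.1 (R 4.3.3; lmFit and eBayes, 4.31 prior degrees of freedom, no covariate) tested CRE minus ERT, two-sided, over all 14953 genes with Benjamini-Hochberg adjustment. Arrays give no count depth, and 3 per group limit precision. Probe signals differ in affinity, so levels of different genes were not ranked. The fit was tested on simulated data first.

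The members, lists and tests were chosen with earlier results of these data known. Named are the members, Inpp5d, up to 12 called genes of each list (otherwise the 3 smallest p), and 5 genes nearest to the member with the largest difference; others are said to be chosen later. A list symbol absent from the annotation was looked up among RefSeq synonyms, and where no single gene matched, no value was used. Promoters are RefSeq's, GRCm38.p6. The build used for the probe sets was not given in the sources used here. Replicate numbers were not used to pair the arrays in the main fit, and the labels do not say whether they do. Alternatives were 2 filters, 2 treatments of probe sets, 3 scalings, 2 variance models, a replicate block and each array left out. Python 3.11.15, pandas 2.3.3, scipy 1.17.1 and matplotlib 3.10.9 were used.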

Additional observations from a re-analysis of the deposited data

How the results depend on the processing

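The direction of Bnip3, Ankrd37, Egln1, Hif1a, Hif1an, Arnt and Egln3 was the same in all 15 settings run for single genes. Differences that turned positive were those of Egln2 (0.0064 after quantile normalization, 0.0039 after loess), Vhl (0.036 and 0.011 in the same order, and 0.0010 to 0.049 without ERT replicate 1, CRE replicate 1 or CRE replicate 2, within a range from -0.060 to 0.049 with an array left out), Bnip3l (0.0041 without ERT replicate 2 and 0.0034 without CRE replicate 2, within a range from -0.053 to 0.0041) and Gabarapl2 (0.015 as a mean of probe sets). The causes were not tested.

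Genes called over all genes numbered 437 with no filter, 2168 after centring, 2147 with trend and robust estimation, 3993 with array weights and 116 to 3042 with an array left out. Members called were 1 with no filter and 0 to 3 with an array left out. HIF targets called were 5 to 18 with an array left out. HIF machinery genes called were 4 with trend and robust estimation, 5 with array weights and 0 to 3 with an array left out. Mitophagy genes called were 2 with the filter at the 50th percentile, 1 after quantile normalization, 3 after centring, 1 after loess, 2 with trend and robust estimation, 3 with array weights and 0 to 2 with an array left out. The 2-oxoglutarate genes called were 1 with no filter, 5 with the filter at the 50th percentile, 7 after centring, 6 with trend and robust estimation, 6 with array weights and 1 or 2 with an array left out.

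Same-numbered arrays did not deviate together (correlations across genes of 0.069, -0.17 and -0.40 for numbers 1, 2 and 3). With 3 arrays per group this cannot decide whether the numbers pair the arrays, and the labels do not say. With the replicate block, 147 genes, 0 members, 5 targets, 0 machinery genes, 0 mitophagy genes and 1 2-oxoglutarate gene were called; that fit has fewer residual degrees of freedom. Fits without an array have fewer residual degrees of freedom too, yet 3042 genes were called without CRE replicate 3, against 1140 with all arrays. The reason was not tested. Array signal limits what small changes can be seen.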
